A study of Homo sapiens with 36 samples.

Results

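ZNF492 and 9 zinc finger genes that lie near it in band p12 of chromosome 19 were followed in human embryonic stem cells labelled as knockouts of the kinase PERK and in their wild-type counterparts. The 10 genes (ZNF431, ZNF100, ZNF43, ZNF208, ZNF257, ZNF676, ZNF729, ZNF98, ZNF492 and ZNF99, in chromosomal order) were taken by symbol from the 58721 genes of the deposited count table. ZNF492 was chosen by its higher count in PERK KO than in wild-type libraries of this same table, and the others by their position, so the ZNF492 genotype difference is given below as a description and not as a test. The other 9 are called neighbours, and the question put to them was whether they were also higher in PERK KO cells. The sample labels give 2 genotypes of the H1 line, PERK KO and wild type, each sampled at days 0, 1, 2, 3, 5 and 10 of differentiation toward cardiomyocytes with 3 libraries a group, 36 in all. H1 is an established line of human embryonic stem cells, and PERK is the kinase of the endoplasmic reticulum encoded by EIF2AK3 that slows translation when unfolded proteins accumulate. Both genotypes received the WNT activator CHIR99021 at the start and the WNT inhibitor IWP2 afterwards. The labels do not say how EIF2AK3 was altered, whether the KO cells come from 1 clone, or whether the 3 libraries of a group come from separate cultures, so the p-values measure the spread between these libraries, which may be technical, and a feature of 1 clone cannot be told apart from an effect of PERK loss.

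Zinc finger proteins of this family read DNA through long arrays of fingers, and most of them carry a KRAB domain at the other end. The KRAB domain recruits the corepressor TRIM28, which brings SETDB1 and other enzymes that place repressive histone methylation and keep transposable elements silent in embryonic stem cells. The genes sit in clusters on chromosome 19 that grew by tandem duplication in primates, so that neighbours are often near copies of each other. The individual targets of most of the 10 genes are not settled, and no role is assigned to them singly here.

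On GRCh38 with GENCODE release 29, the 10 genes span chr19:21142024-22784107, or 1.64 Mb. ZNF492 lies on the plus strand at chr19:22634324-22667670 (ENSG00000229676.2). ZNF99 (chr19:22752183-22784107, minus strand) has its nearer, 3′ end 84.5 kb past the end of ZNF492. ZNF98 (chr19:22391019-22532485, minus strand) starts 101.8 kb before the start of ZNF492. ZNF43 (chr19:21804949-21852125, minus strand), ZNF100 (chr19:21722766-21767628, minus strand) and ZNF431 (chr19:21142024-21196053, plus strand) lie 782.2, 866.7 and 1438.3 kb away, on the far side of ZNF208, ZNF257, ZNF676 and ZNF729.

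RefSeq promoters on GRCh38.p14 were at hand for 6 of the 10 genes, and 4 of them are printed here because they show how alike the starts are of a gene that was high in PERK KO cells (ZNF492), of a pair that diverged between the genotypes later (ZNF43 and ZNF100), and of one without a read (ZNF257). Each line gives the 250 bases before the RefSeq start, 5′ to 3′ on the strand of the gene. Capitals mark CCAATCA, the CCAAT box, and TTCCGG, the core of the sites of ETS family factors. Both motifs were picked after these sequences had been looked at, and they were searched on both strands, where they do not overlap each other. The intervals are chr19:22634074-22634323 for ZNF492, chr19:21836183-21836432 for ZNF43, chr19:21767580-21767829 for ZNF100 and chr19:22052234-22052483 for ZNF257.
ZNF492: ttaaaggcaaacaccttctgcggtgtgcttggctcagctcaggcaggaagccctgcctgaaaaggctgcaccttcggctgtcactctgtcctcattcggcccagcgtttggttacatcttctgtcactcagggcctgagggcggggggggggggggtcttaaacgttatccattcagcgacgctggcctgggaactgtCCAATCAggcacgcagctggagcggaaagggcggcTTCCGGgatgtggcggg
ZNF43: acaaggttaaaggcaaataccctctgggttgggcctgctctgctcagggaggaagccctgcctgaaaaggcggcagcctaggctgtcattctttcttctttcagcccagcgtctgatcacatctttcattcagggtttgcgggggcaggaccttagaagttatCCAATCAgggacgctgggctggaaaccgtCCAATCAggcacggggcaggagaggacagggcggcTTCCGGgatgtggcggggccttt
ZNF100: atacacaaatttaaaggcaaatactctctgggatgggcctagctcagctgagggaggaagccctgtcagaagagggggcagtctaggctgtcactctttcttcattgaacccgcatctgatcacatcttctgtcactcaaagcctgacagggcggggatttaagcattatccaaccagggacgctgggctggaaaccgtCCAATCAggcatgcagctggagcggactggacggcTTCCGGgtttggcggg
ZNF257: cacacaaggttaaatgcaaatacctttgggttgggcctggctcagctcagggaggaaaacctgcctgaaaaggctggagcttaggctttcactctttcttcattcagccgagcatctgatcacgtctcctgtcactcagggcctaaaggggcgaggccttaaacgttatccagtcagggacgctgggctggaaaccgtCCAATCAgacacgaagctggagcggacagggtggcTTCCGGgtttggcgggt

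The promoters of the other 5 members in the table were 74.6 to 79.8% identical to that of ZNF492 in a global alignment, against a median of 48.9% for 1740 promoters taken at even steps through the table. The highest of those 1740 was at 78.7%, which lies within the range of the members. The promoter of ZNF100 was at 74.6%, that of ZNF43 at 76.0% and that of ZNF257 at 77.7%. Both motifs stood in 6 of 6 member promoters, in 14 of 23 promoters (60.9%) of 27 further zinc finger genes of the same region, in 22 of 372 promoters (5.91%) of the remaining numbered ZNF genes and in 1.12% of all 34786 promoters. Singly, CCAATCA stood in 6.62% and TTCCGG in 14.5% of all promoters. These matches describe letters, and ZNF257, which holds both motifs, had 0 counts. The RefSeq start of ZNF43 lies inside its GENCODE span, and which start these cells used was not tested. ZNF676, ZNF729, ZNF98 and ZNF99 are named only.

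ZNF492 was higher in PERK KO cells than in wild-type cells in every library of every day. CPM (counts divided by the library total in M, scaled by TMM) were 42.4, 35.8 and 44.7 in the PERK KO libraries of day 0 and 4.61, 2.91 and 2.73 in the wild-type ones. At day 1 they were 22.6, 20.0 and 20.2 in PERK KO cells and 9.13, 10.1 and 9.70 in wild-type cells. At day 2 they were 29.8, 22.6 and 25.7 in PERK KO cells and 2.12, 2.78 and 0.727 in wild-type cells. The gap was thus narrowest at day 1, when the wild-type level was at its own highest. At day 3 the PERK KO libraries had 16.9, 15.6 and 11.4 CPM and the wild-type ones 3.15, 1.71 and 0.729 CPM. At day 5 the values were 22.4, 20.6 and 23.5 in PERK KO cells and 1.14, 1.77 and 1.16 in wild-type cells. At day 10 they were 12.3, 11.7 and 15.4 in PERK KO cells and 0.134, 0.135 and 0.280 in wild-type cells, where the 3 libraries held 3, 2 and 5 counts. The ratio of the group means, PERK KO over wild type, was 11.99, 2.17, 13.9, 7.85, 16.3 and 71.8 at days 0, 1, 2, 3, 5 and 10. The lowest PERK KO library of any day, at 11.4 CPM, stood above the highest wild-type library of any day, at 10.1 CPM.

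**Figure D1:**
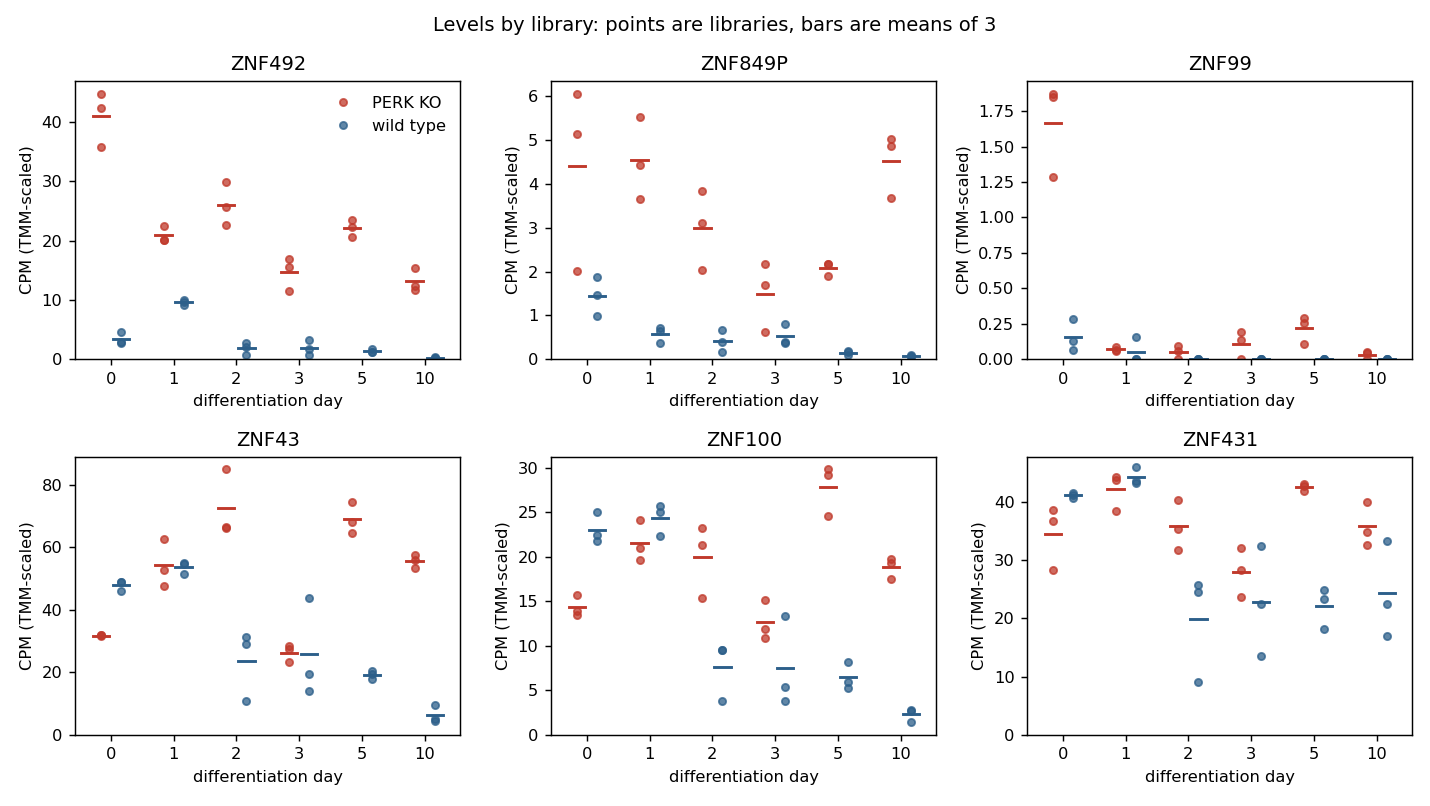
Levels of ZNF492, the pseudogene ZNF849P beside it, and the members ZNF99, ZNF43, ZNF100 and ZNF431, in TMM-scaled CPM on linear axes that start at 0 and differ between panels. Each point is a library, PERK KO left of wild type at each day, and each bar is the mean of 3. ZNF492 is apart at 6 of 6 days, while ZNF43, ZNF100 and ZNF431 are lower or level in PERK KO cells at days 0 and 1 and higher at days 2 and 5.

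Of the 9 neighbours, 3 had no read in any library. ZNF257, ZNF676 and ZNF729 each had 0 counts among 329 M counted reads in PERK KO cells and 342 M in wild-type cells. A count of 0 allows up to 3 counts, or 0.00447 CPM over both genotypes, where counting error is the limit considered. ZNF208 had 2 counts in 1 PERK KO library and 7 counts spread over 6 wild-type libraries. None of these 4 genes passed the filter on low counts, and a difference between the genotypes was not detectable at this depth.

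ZNF98, which shares stretches of its transcript with ZNF492, had 21.2 estimated counts in 12 of 18 PERK KO libraries and 1 count in 1 wild-type library, and it too failed the filter. Its highest library, PERK KO day 2 replicate 1, had 3.76 counts. Of its 150-base transcript windows, 488 (15.4%) also occur in ZNF492, where they make up 11.9%. In 9 of the 13 libraries with any ZNF98 the value was fractional, and in 9 of 9 of these the ZNF492 value was fractional too and their sum was whole within 0.011. RSEM gives fractions where it divides a read between genes, so part of the ZNF98 count comes from reads divided between these 2 genes. All ZNF98 counts came to 0.258% of the sum of both genes.

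ZNF99, the next protein-coding member downstream, was higher in PERK KO cells at day 0. The PERK KO libraries held 30, 14 and 32 counts and the wild-type libraries 1, 2 and 4, without overlap, or 1.67 ± 0.33 CPM and 0.159 ± 0.110 CPM (SD, n = 3 each). The log2 fold change was 3.37 ± 0.68 (SE) with an adjusted p of 0.00107 in edgeR's quasi-likelihood F test with Benjamini-Hochberg adjustment over 19772 genes, the test used for every adjusted p below unless another tool is named. At day 0, 21.1% of all genes tested were called in either direction and 12.5% as higher, where called means an adjusted p under 0.05. The gene passed the filter through its PERK KO day 0 libraries, so that its being tested lends that call no weight. From day 1 on ZNF99 was close to absent in both genotypes. It held 1, 1 and 2 counts in PERK KO libraries and 0, 3 and 0 in wild-type libraries at day 1, and 0, 1 and 2 in PERK KO libraries and 0 in each wild-type library at day 2. At day 3 it held 4, 3 and 0 counts in PERK KO libraries and 0 in each wild-type library (adjusted p = 0.029, with 1 PERK KO library also at 0). At day 5 it held 5, 2 and 5 counts in PERK KO libraries and 0 in each wild-type library (adjusted p = 0.00412), which is at least 4.52-fold higher when the wild-type group is set at 3 counts. At day 10 it held 1, 0 and 1 counts in PERK KO libraries and 0 in each wild-type library and was not called. The day 3 call rests on 7 reads and was lost without any 1 of the 3 wild-type libraries of that day or without PERK KO replicate 1 or 2, with adjusted p between 0.0619 and 0.0999.

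ZNF431, ZNF100 and ZNF43, the 3 members counted in all 36 libraries beside ZNF492, did not share its pattern before day 2. At day 0 ZNF43 was at 31.5, 31.9 and 31.9 CPM in PERK KO libraries and 46.2, 48.8 and 48.9 CPM in wild-type libraries. ZNF100 was at 13.5, 13.9 and 15.7 CPM in PERK KO libraries and 21.7, 25.1 and 22.4 CPM in wild-type libraries. ZNF431 was at 38.5, 28.3 and 36.8 CPM in PERK KO libraries and 41.5, 40.7 and 41.2 CPM in wild-type libraries. In each of the 3 genes the wild-type libraries were above the PERK KO ones without overlap, opposite to ZNF492, yet none passed the test. The share of all genes without overlap was not computed for any day, so separation of libraries is a description here and below. The log2 fold changes were -0.59 ± 0.29, -0.68 ± 0.30 and -0.25 ± 0.26 for ZNF43, ZNF100 and ZNF431, with adjusted p of 0.157, 0.103 and 0.549. With no filter on low counts ZNF100 and ZNF43 were called lower (adjusted p = 0.0203 and 0.0313), and ZNF100 also without wild-type day 3 replicate 1 (adjusted p = 0.0331). At day 0 edgeR and DESeq2 each called 0 of the 4 tested neighbours lower, against 8.64% of all genes in edgeR, and 1, ZNF100, had an unadjusted edgeR p under 0.05 in that direction.

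At day 1, edgeR and DESeq2 each called 0 of the 4 tested neighbours in either direction, and 0 had an unadjusted edgeR p under 0.05, against 15.8% of all genes called, 8.11% as higher and 7.72% as lower. ZNF43 was at 62.8, 47.5 and 52.8 CPM in PERK KO libraries and 54.5, 54.9 and 51.5 CPM in wild-type libraries. ZNF100 averaged 21.6 ± 2.4 CPM in PERK KO cells and 24.3 ± 1.8 CPM in wild-type cells, and ZNF431 averaged 42.2 ± 3.2 CPM and 44.2 ± 1.5 CPM (SD, n = 3 each, PERK KO first). The libraries of the 2 genotypes overlapped for each of the 3 genes.

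At day 2 all 3 were higher in PERK KO cells. ZNF43 was at 85.0, 66.6 and 66.1 CPM in PERK KO libraries and 29.1, 31.2 and 10.8 CPM in wild-type libraries. ZNF100 was at 23.3, 15.3 and 21.4 CPM in PERK KO libraries and 9.54, 9.58 and 3.79 CPM in wild-type libraries. ZNF431 was at 40.3, 31.8 and 35.3 CPM in PERK KO libraries and 25.8, 24.5 and 9.14 CPM in wild-type libraries. Each PERK KO library was above each wild-type library, and the wild-type replicate 3 was the lowest of all in each gene. The log2 fold changes were 1.62 ± 0.30, 1.39 ± 0.30 and 0.86 ± 0.27 for ZNF43, ZNF100 and ZNF431, with adjusted p of 5.4e-05, 0.000432 and 0.0101. Thus 3 of the 4 tested neighbours were called higher at day 2, where 42.6% of all genes were called in either direction and 20.9% as higher. Without wild-type day 2 replicate 3 the values were 1.27 and 1.07 for ZNF43 and ZNF100, both still called, while ZNF431 was at 0.51 and was not called (adjusted p = 0.117).

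Day 3 was the exception among the later days. ZNF43 was at 28.3, 27.3 and 23.2 CPM in PERK KO libraries and 43.9, 19.4 and 14.1 CPM in wild-type libraries, so that the wild-type libraries lay on both sides of the PERK KO ones. ZNF100 was at 15.2, 11.9 and 10.9 CPM in PERK KO libraries and 13.3, 5.39 and 3.76 CPM in wild-type libraries. ZNF431 was at 32.1, 28.3 and 23.7 CPM in PERK KO libraries and 32.4, 22.5 and 13.6 CPM in wild-type libraries. In all 3 genes wild-type replicate 1 was the highest and replicate 3 the lowest of its group. The PERK KO libraries of day 3 ran in the same order of replicates. The log2 fold changes were 0.02 ± 0.29, 0.75 ± 0.30 and 0.29 ± 0.26, and ZNF100 alone of the 3 was called (adjusted p = 0.0438, against 0.961 for ZNF43 and 0.391 for ZNF431). Leaving out 1 library at a time gave -0.31 to 0.65 for ZNF43 and -0.01 to 0.64 for ZNF431, without a call in any fit. With ZNF99, 2 of the 4 tested neighbours were called higher, where 45.1% of all genes were called in either direction and 21.9% as higher. The ZNF100 call was lost when any 1 of 9 libraries was left out, namely wild-type day 0 replicate 2, day 3 replicates 2 and 3, day 5 replicate 1 and day 10 replicates 2 and 3, and PERK KO day 0 replicate 2 and day 3 replicates 1 and 2 (adjusted p 0.0501 to 0.325), and it was at 1.47 without wild-type day 3 replicate 1.

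The count-weighted mean transcript length of the wild-type day 3 libraries ran in the same order as these 3 genes, at 1949, 1879 and 1805 nt for replicates 1, 2 and 3. It was also lower in wild-type day 2 replicate 3, at 1749 nt against 1871 and 1854 nt, and lowest in PERK KO day 0 replicate 2, at 1468 nt against 1806 and 1782 nt. The part of transcript length in the spread of the members was not tested.

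From day 5 the genotypes stood apart again. ZNF43 was at 74.6, 64.7 and 68.2 CPM in PERK KO libraries and 17.7, 19.6 and 20.4 CPM in wild-type libraries. ZNF100 was at 29.2, 24.6 and 29.8 CPM in PERK KO libraries and 5.26, 5.97 and 8.16 CPM in wild-type libraries. ZNF431 was at 43.0, 41.9 and 42.7 CPM in PERK KO libraries and 18.1, 23.4 and 24.9 CPM in wild-type libraries. No library of either genotype overlapped with the other in these genes. The log2 fold changes were 1.85 ± 0.30, 2.10 ± 0.31 and 0.94 ± 0.27, with adjusted p of 4.75e-06, 8.88e-07 and 0.00318. With ZNF99, 4 of the 4 tested neighbours were called higher, where 59.0% of all genes were called in either direction and 28.6% as higher.

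At day 10 ZNF43 was at 53.5, 56.0 and 57.6 CPM in PERK KO libraries and 9.46, 4.32 and 5.20 CPM in wild-type libraries. ZNF100 was at 19.3, 17.5 and 19.7 CPM in PERK KO libraries and 2.64, 2.77 and 1.45 CPM in wild-type libraries. Both were apart without overlap, by log2 fold changes of 3.12 ± 0.32 and 3.04 ± 0.34 (adjusted p = 9.76e-10 and 4.3e-09). ZNF431 was at 34.8, 32.5 and 40.0 CPM in PERK KO libraries and 33.3, 22.5 and 17.0 CPM in wild-type libraries, which overlap, and its log2 fold change of 0.56 ± 0.26 was not called (adjusted p = 0.063). That call is close to the threshold, since 5 of the 8 other ways of processing and 4 of the 36 fits without 1 library called it higher, with adjusted p between 0.0104 and 0.0460. Thus 2 of the 4 tested neighbours were called higher at day 10, where 67.3% of all genes were called in either direction, 33.3% as higher and 34.0% as lower. At days 2, 3, 5 and 10, edgeR and DESeq2 each called 0 neighbours lower, and 0 had an unadjusted edgeR p under 0.05 in that direction.

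The change of the genotype difference over the days was itself tested. It was called for ZNF43, ZNF100 and ZNF431 (adjusted p = 2.15e-08, 5.12e-08 and 0.0209 for the 5 genotype-by-day terms together) and not for ZNF99 (adjusted p = 0.219), where 80.9% of all genes were called. Over the 6 days 1, 0, 3, 2, 4 and 2 of the 4 neighbours tested were called higher, and the other 5 of the 9 were not tested. The background shares of 12.5, 8.11, 20.9, 21.9, 28.6 and 33.3% are likewise over tested genes. The 4 include ZNF99, which was tested only because it was high in PERK KO cells of day 0.

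**Figure D2:**
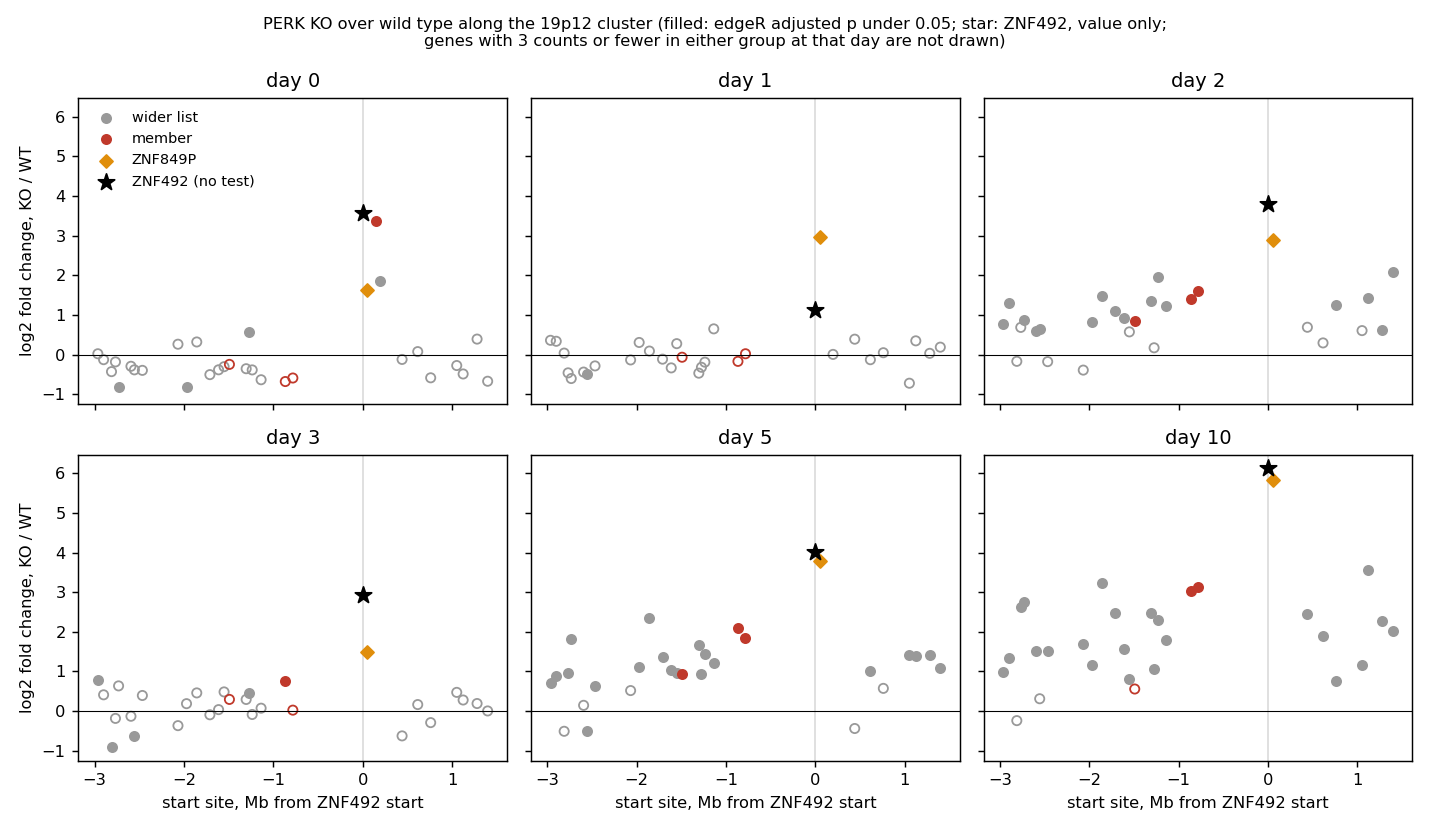
Log2 fold change, PERK KO over wild type, of the members (red), 27 further zinc finger genes (grey) and ZNF849P (orange), against the distance of their start from that of ZNF492 in Mb, at each of 6 days. Filled symbols passed the edgeR test, the star marks ZNF492 as a value without a test, and genes with 3 counts or fewer in either group at that day are not drawn. At days 2, 5 and 10 filled symbols above 0 run along the whole stretch drawn. Among the genes drawn, the highest values of days 0 and 1 lie within 0.2 Mb of ZNF492. They include ZNF492 and ZNF849P, picked for their values, and at day 0 ZNF99, which passed the filter through that PERK KO group. A link to distance can therefore not be read from them. Other tested genes of the stretch are not drawn, such as AC123912.4, at 1.66 at day 1 without a call.

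Over time, ZNF492 fell in both genotypes but from different levels and by different amounts. The gene was chosen by its genotype difference in this same table, which includes the day 0 libraries. A fall from a high PERK KO day 0, or a rise from a low wild-type day 0, may thus be partly built into the choice. So may a fall to low wild-type values at later days, since the choice used those libraries too. The adjusted p below are to be read with that limit, and the 5 comparisons of each genotype share their day 0 libraries. In PERK KO cells its log2 change against day 0 was -0.97, -1.48, -0.89 and -1.64 ± 0.28 at days 1, 3, 5 and 10 (adjusted p = 0.00474, 6.85e-05, 0.00761 and 8.05e-06), and it was -0.66 at day 2 without passing the test (adjusted p = 0.0507). In wild-type cells it first rose, by 1.49 ± 0.31 at day 1 (adjusted p = 0.000193). It then fell below day 0, with log2 changes of -0.87, -0.85 and -1.33 at days 2, 3 and 5 (adjusted p = 0.0331, 0.0328 and 0.00169), and reached -4.18 ± 0.49 at day 10 (adjusted p = 8.84e-09). PERK KO cells of day 10 thus held 13.1 ± 2.0 CPM of ZNF492, against 41.0 ± 4.6 CPM at day 0, and wild-type cells of day 10 held 0.183 ± 0.084 CPM, against 3.42 ± 1.03 CPM at day 0 (SD, n = 3 each).

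ZNF43 and ZNF100 took different courses in the 2 genotypes. In PERK KO cells ZNF43 was above day 0 by 0.77, 1.19, 1.12 and 0.81 on the log2 scale at days 1, 2, 5 and 10 (adjusted p = 0.0335, 0.00177, 0.00231 and 0.0181) and not at day 3 (-0.27, adjusted p = 0.49). ZNF100 was above day 0 in PERK KO cells at day 5 (0.96, adjusted p = 0.00868), and ZNF431 at no day by edgeR, with values between -0.30 and 0.30. In wild-type cells all 3 fell from day 2 on. The log2 changes against day 0 at day 2 were -1.02, -1.60 and -1.06 for ZNF43, ZNF100 and ZNF431 (adjusted p = 0.00491, 6.19e-05 and 0.00148). At day 10 they were -2.90 ± 0.32, -3.33 ± 0.34 and -0.76 ± 0.27 (adjusted p = 2.66e-09, 5.29e-10 and 0.0126). The later difference of ZNF43 and ZNF100 goes with a fall in wild-type cells, by 7.48-fold and 10.1-fold at day 10 against day 0, and with a rise of ZNF43 by 1.75-fold in PERK KO cells.

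ZNF99 held 4, 3, 7, 12 and 2 counts per group in PERK KO cells at days 1, 2, 3, 5 and 10 against 76 at day 0. Since it passed the filter through that day 0 group, a lower value at later days was built into its selection and is given as a description. In wild-type cells it had 0 counts per group at days 2 to 10, against 7 at day 0, and was called lower at these 4 days (adjusted p 0.0111 to 0.016). Taking the 5 members tested, 1, 1, 0, 2 and 1 were called higher and 2, 1, 2, 2 and 2 lower in PERK KO cells at days 1, 2, 3, 5 and 10, and 1 of those lower at each day is ZNF99. The other call lower at days 1, 3, 5 and 10 is ZNF492, as is the wild-type call higher at day 1, and its choice used these libraries. The background for these calls in either direction was 43.1, 41.4, 40.3, 48.8 and 61.8% of all genes, with 18.0, 17.5, 18.5, 21.5 and 29.9% higher and 25.1, 23.8, 21.8, 27.3 and 31.9% lower. In wild-type cells 1 was called higher and 0 lower at day 1, and 0 higher and 5 lower at each later day, where 44.6, 50.5, 56.8, 61.9 and 69.2% of all genes were called in either direction, 20.9, 25.4, 29.3, 31.4 and 34.9% as higher and 23.7, 25.1, 27.5, 30.5 and 34.3% as lower. Of those 5 lower at each later day, 1 is ZNF492, whose choice used the wild-type libraries as well, so it lends these counts no weight. At day 3 the wild-type count of 5 was 3 without replicate 2 and 2 without replicate 3 of that day, and at day 2 it was 3 without replicate 3 of that day. The single call of a rise in PERK KO cells at day 1, ZNF43, was lost without any 1 of the 3 PERK KO libraries of day 0 or without day 1 replicate 1 or 3. Without wild-type day 10 replicate 2 or 3, ZNF431 was not called lower in wild-type cells at day 10 (adjusted p = 0.0508 and 0.107). DESeq2 gave the same counts of 0, and 0 members had an unadjusted edgeR p under 0.05 in those directions.

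**Figure D3:**
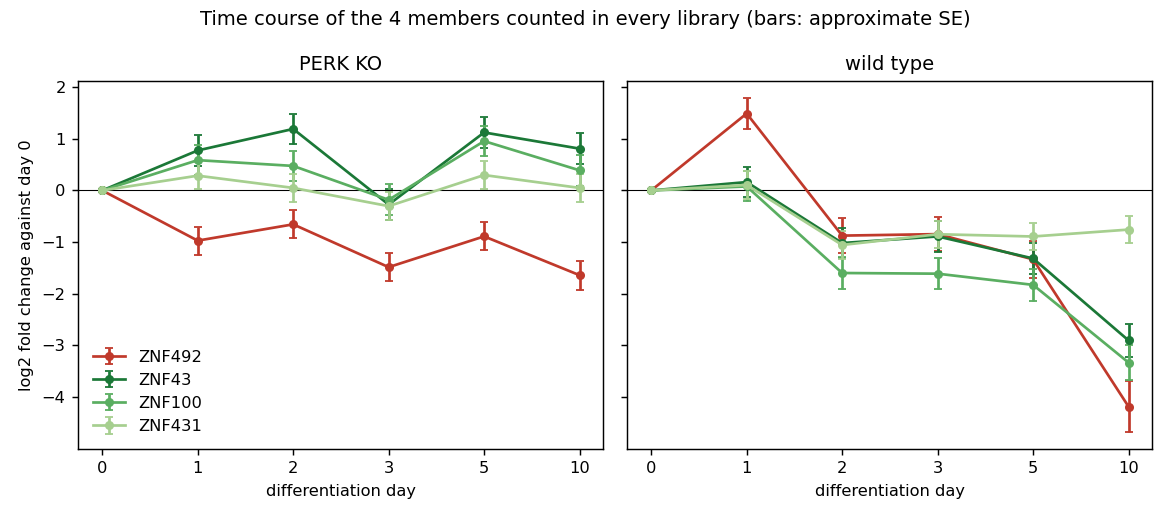
Log2 change against day 0 of the 4 members counted in all 36 libraries, in PERK KO cells (left) and wild-type cells (right), with days spaced evenly and bars of 1 approximate SE from the edgeR fit. ZNF43 and ZNF100 stay near or above their day 0 level in PERK KO cells and end at -2.90 and -3.33 in wild-type cells, and ZNF492 ends at -1.64 in PERK KO cells and -4.18 in wild-type cells.

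Per transcript length, which allows genes to be compared, ZNF492 ranked with the most abundant members in PERK KO cells at day 0 and last of the 4 members counted in all libraries at day 10. At day 0 the levels in PERK KO cells were 11.6 ± 4.7 TPM (transcripts per M, which accounts for length) for ZNF431, 10.9 ± 4.1 for ZNF492, 8.55 ± 3.14 for ZNF43, 4.02 ± 1.97 for ZNF100 and 0.237 ± 0.101 for ZNF99 (SD, n = 3), and the first 3 of that order do not differ beyond their spread. In wild-type cells of day 0 they were 14.7 ± 0.9 TPM for ZNF43, 12.6 ± 1.9 for ZNF431, 6.75 ± 2.09 for ZNF100, 1.05 ± 0.32 for ZNF492 and 0.0233 ± 0.0153 for ZNF99, and the first 2 do not differ beyond their spread. At day 10 the order in PERK KO cells was ZNF43 at 25.7 ± 1.8, ZNF431 at 15.9 ± 2.8, ZNF100 at 8.29 ± 1.49 and ZNF492 at 5.10 ± 0.88 TPM. In wild-type cells of day 10 it was ZNF431 at 11.8 ± 7.8, ZNF43 at 3.23 ± 2.25, ZNF100 at 0.973 ± 0.356 and ZNF492 at 0.0567 ± 0.0208 TPM.

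The 27 further zinc finger genes of the region, 26 of them tested, were mostly not called before day 2 and mostly higher in PERK KO cells at days 2, 5 and 10. PERK KO cells had 2, 0, 16, 3, 20 and 23 of the 26 higher and 2, 1, 0, 2, 1 and 0 lower at days 0, 1, 2, 3, 5 and 10, and the median log2 fold changes were -0.33, -0.06, 0.80, 0.18, 1.02 and 1.74, against medians between -0.03 and 0.03 for all genes. Called in either direction were 15.4, 3.85, 61.5, 19.2, 80.8 and 88.5% of the 26, against 21.1, 15.8, 42.6, 45.1, 59.0 and 67.3% of all genes, so that the share was below the background at days 0, 1 and 3. Of the 425 other numbered ZNF genes tested, 61, 45, 122, 56, 128 and 226 were higher and 23, 24, 57, 77, 111 and 69 lower, with medians between -0.05 and 0.61. Whether the 2 lists differ was not tested. Without wild-type day 3 replicate 1, 11 of the 26 were higher at day 3. Among the named genes of the region, ZNF254 was higher in PERK KO cells at day 2, at 35.3 ± 5.9 CPM against 8.42 ± 5.37 CPM in wild-type cells. ZNF66 was higher at day 5, at 8.82 ± 0.97 CPM in PERK KO cells and 1.73 ± 0.36 CPM in wild-type cells, and ZNF681 at day 10, at 21.2 ± 0.5 CPM in PERK KO cells and 1.71 ± 1.47 CPM in wild-type cells. In the other direction ZNF93, a repressor of LINE-1 elements, was at 26.1 ± 6.1 CPM in PERK KO cells and 46.0 ± 2.9 CPM in wild-type cells at day 0 (adjusted p = 0.0404), and ZNF90 was lower at days 1, 3 and 5. With only the libraries compared, 0 of the 26 were called lower at day 0, so the call of ZNF93 was lost. The day 1 call of ZNF90 (adjusted p = 0.044) was lost without any 1 of 17 libraries.

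**Figure D4:**
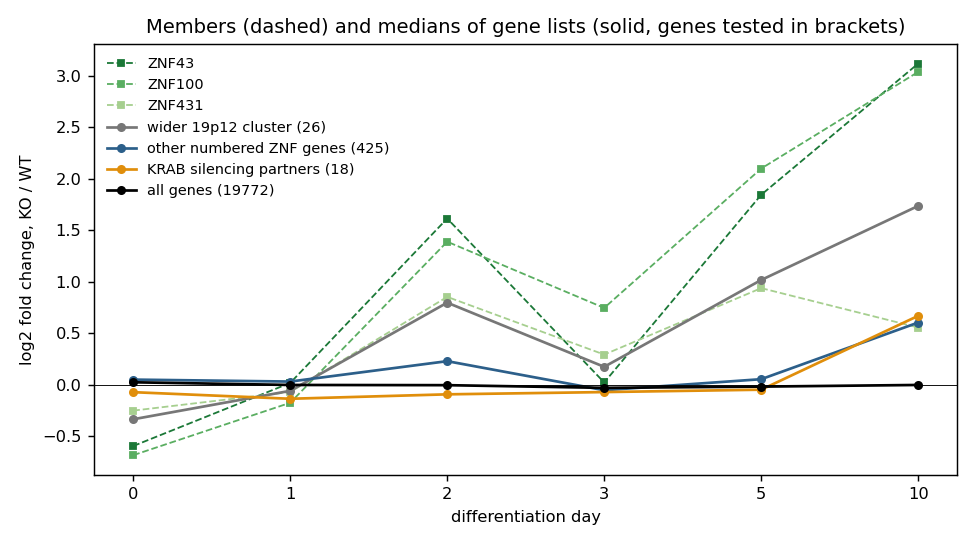
Log2 fold change, PERK KO over wild type, of ZNF43, ZNF100 and ZNF431 (dashed) beside the medians of 26 further 19p12 zinc finger genes, 425 other numbered ZNF genes, 18 partners of KRAB silencing and all 19772 genes tested (solid), with days spaced evenly. The 19p12 median runs at -0.33, -0.06, 0.80, 0.18, 1.02 and 1.74 over the 6 days, with a dip at day 3 as in ZNF43, while the median of all genes stays near 0. At day 3, 3 of the 26 were called higher, and 11 without wild-type day 3 replicate 1.

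The partners of KRAB silencing gave mixed calls. Of 18 tested, 1, 1, 4, 2, 4 and 10 were higher and 2, 2, 5, 4, 7 and 4 lower in PERK KO cells at days 0, 1, 2, 3, 5 and 10. In either direction these were 16.7, 16.7, 50.0, 33.3, 61.1 and 77.8%, against 21.1, 15.8, 42.6, 45.1, 59.0 and 67.3% of all genes. UHRF1, which recruits the maintenance DNA methyltransferase, was at 30.9 ± 4.5 CPM in PERK KO cells and 53.0 ± 4.1 CPM in wild-type cells at day 0 (adjusted p = 6.94e-05), and at 49.6 ± 2.6 CPM in PERK KO cells and 8.47 ± 0.32 CPM in wild-type cells at day 10 (adjusted p = 6.01e-16). DNMT1, that methyltransferase, was lower in PERK KO cells at day 0, at 217 ± 39 CPM against 278 ± 9 CPM in wild-type cells (adjusted p = 0.0284), and higher at day 3, at 272 ± 12 CPM against 222 ± 33 CPM in wild-type cells (adjusted p = 0.0429). DNMT3B, a de novo DNA methyltransferase of pluripotent cells, was at 506 ± 14 CPM in PERK KO cells and 772 ± 33 CPM in wild-type cells at day 1 (adjusted p = 0.00506), and at 199 ± 21 CPM in PERK KO cells and 46.9 ± 5.1 CPM in wild-type cells at day 10 (adjusted p = 1.34e-12), and it is also 1 of the 8 pluripotency markers summed below.

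Cell type markers stood apart between the genotypes alongside these differences, though not for each list at each day. The 3 endothelial markers summed to 335 to 410 CPM in PERK KO libraries and 328 to 393 CPM in wild-type libraries at day 2, which overlap. At day 10 they summed to 16.1 to 35.8 CPM in PERK KO libraries and 457 to 588 CPM in wild-type libraries. The summed level of 5 primitive streak and mesoderm markers was 651 to 809 CPM in PERK KO libraries and 2730 to 2890 CPM in wild-type libraries at day 1, when no neighbour was called, and 190 to 260 CPM in PERK KO libraries and 5450 to 7180 CPM in wild-type libraries at day 2. The summed level of 8 pluripotency markers was 7080 to 7470 CPM in PERK KO libraries and 2790 to 3860 CPM in wild-type libraries at day 2, 7100 to 7710 and 1330 to 1950 CPM at day 3, and 2160 to 2330 and 264 to 318 CPM at day 10, PERK KO first. At day 0 it was 7250 to 8660 CPM in PERK KO libraries and 7260 to 7740 CPM in wild-type libraries. At day 0, 6 neuroectoderm markers summed to 29.3 to 32.6 CPM in PERK KO libraries and 10.9 to 13.9 CPM in wild-type libraries. Day 2 went the other way, with 88.5 to 92.3 CPM in PERK KO libraries and 194 to 208 CPM in wild-type libraries. At day 10 the sum was 801 to 1000 CPM in PERK KO libraries and 29.4 to 37.3 CPM in wild-type libraries. In wild-type cells 1 of the 6 was at 0 at each of these days. The summed level of 7 cardiomyocyte markers was 97.0 to 358 CPM in PERK KO libraries and 10700 to 13500 CPM in wild-type libraries at day 10. In the groups given, 0 of the 8, 0 of the 7, 0 of the 5 and 0 of the 3 markers of the other lists were at 0. The part of the cell types in the differences of the members was not tested, and in such bulk samples fewer cells of a type and less RNA per cell cannot be told apart. EIF2AK3 itself had 16.9 ± 4.3 CPM in PERK KO cells and 21.9 ± 3.3 CPM in wild-type cells at day 0 (SD, n = 3 each) and was called at 0 of 6 days by edgeR (adjusted p 0.127 to 0.981) and by DESeq2, with 1 day, day 1, at an unadjusted edgeR p under 0.05. With replicate 2 of PERK KO day 0 and replicate 3 of wild-type day 2 left out, it was called higher at day 1 and lower at day 3 (adjusted p = 0.0379 and 0.0494), and with only the libraries compared it was higher at day 1 (adjusted p = 0.00204), so its RNA level is no check of the PERK KO label here.

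Within the 1.64 Mb that the members span, 74 other genes are annotated, of which 36 had no count and 14 were tested. ZNF708, ZNF738, ZNF493 and ZNF429 are among the 14 and also among the further zinc finger genes counted above, so these counts overlap. Of these 14, 3, 2, 7, 6, 12 and 10 were higher in PERK KO cells at days 0, 1, 2, 3, 5 and 10 by edgeR, and the remaining ones were not called. The shares of all genes called higher at these days were 12.5, 8.11, 20.9, 21.9, 28.6 and 33.3%. Of the 14, LINC01785 passed the filter through PERK KO libraries, chiefly of day 3, and AC123912.3 through those of day 5 (18, 11 and 13 counts). Their being tested thus lends no weight to the calls of LINC01785 at days 3 and 5 and of AC123912.3 at day 5. The 3 of day 0 are ZNF849P and, on the far side of ZNF43, ZNF738 (64.1 CPM in PERK KO cells and 43.6 CPM in wild-type cells) and LINC00664, named after its values were seen (20.54 CPM in PERK KO cells and 16.03 CPM in wild-type cells, adjusted p = 0.0358). The only one of the 14 downstream of ZNF492 is ZNF849P, an unprocessed zinc finger pseudogene at chr19:22685167-22686732 that starts 17.5 kb past its end, and it was singled out after its values were seen. It was at 6.05, 2.02 and 5.14 CPM in PERK KO libraries and 0.988, 1.88 and 1.47 CPM in wild-type libraries at day 0. At day 1 it was at 5.54, 3.67 and 4.44 CPM in PERK KO libraries and 0.699, 0.367 and 0.639 CPM in wild-type libraries. At day 10 it was at 3.67, 5.03 and 4.87 CPM in PERK KO libraries and 0.0896, 0.0675 and 0.0559 CPM in wild-type libraries. ZNF849P was called higher at 6 of 6 days, with log2 fold changes of 1.63, 2.97, 2.88, 1.49, 3.80 and 5.84 at days 0, 1, 2, 3, 5 and 10 (adjusted p between 3.73e-10 and 0.00603), and the genotypes overlapped at day 3. The day 3 call was lost without PERK KO replicate 1 of that day (adjusted p = 0.0607), and with only the libraries compared the calls of day 0 and day 3 were lost (adjusted p = 0.12 and 0.0509). None of its 150-base windows occurs in ZNF492. The pseudogene lies within the span of an annotated antisense gene that had 0 counts, and since the strand used in counting is not given in the sources used here, reads from either strand cannot be told apart.

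On either side, ZNF723 and LINC01785 also held more reads in PERK KO cells at some days. ZNF723, a zinc finger gene of the wider list that starts 164.7 kb past ZNF492, was at 46, 20 and 56 counts in PERK KO libraries and 14, 11 and 8 in wild-type libraries at day 0, without overlap (log2 fold change 1.86 ± 0.50, adjusted p = 0.00841). With only the libraries compared it was not called at day 0 (adjusted p = 0.0672). At day 1 it held 2, 2 and 3 counts in PERK KO libraries and 6, 2 and 0 in wild-type libraries and was not called. LINC01785, a noncoding gene on the minus strand that starts 10.4 kb before ZNF492 and was also picked after its values were seen, held 13, 14 and 14 counts in PERK KO libraries and 0 in each wild-type library at day 3, at least 13.2-fold higher with the wild-type group set at 3 counts. At day 5 it held 2, 13 and 2 counts in PERK KO libraries and 0 in each wild-type library, and at day 0 it held 0 counts in PERK KO libraries and 2 in wild-type ones.

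Over the 36 libraries, the genes whose log2 CPM was most like that of ZNF492 were PCDHA11 (Pearson's r = 0.919), GSPT2 (0.917), UBA2 (0.917), BX322639.1 (0.915) and PTPRZ1 (0.914). ZNF100 came 245th of 19771 genes with 0.826, ZNF43 375th with 0.810, ZNF431 2357th with 0.644 and ZNF99 3248th with 0.570. These correlations describe libraries that share genotype, day and depth.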

How the data were processed

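RNA was measured by sequencing of mRNA libraries from 36 samples. Per the submitters' processing notes, CASAVA, FastQC, STAR and RSEM were used, with versions not given in the sources used here. The authors deposited RSEM expected counts per gene for all libraries and, per sample, expected counts and TPM. Libraries held 14.0 to 25.9 M counts (median 18.2 M), and 6.53 to 9.43% of the values of a library were fractional. Expected counts were rounded, filtered with filterByExpr (19772 of 58721 genes kept), scaled by TMM and fitted with edgeR 4.0.16 (R 4.3.3) in 1 model of 12 groups, leaving 24 residual degrees of freedom. The quasi-likelihood F test was adjusted by Benjamini-Hochberg over all genes kept, and genes were called at an adjusted p under 0.05. The common dispersion was 0.0349. The fit was also run on counts simulated from its own means and dispersions, which cannot show how well it fits these libraries. Replicate numbers were not used to pair the samples, as 3 of 18 correlations of same-numbered libraries exceeded 0.1. These were day 2 replicate 1 (0.126) and day 3 replicates 1 and 3 (0.316 and 0.284). A deviation shared by the genotypes at day 3 was not tested. Alternatives were no filter, a stricter filter, RLE scaling, DESeq2 1.42.0, the libraries compared alone, a replicate block, the per-sample counts, and leaving out libraries. The members and lists were chosen with earlier results of these data known. Named genes are the 10 members, EIF2AK3 and, per list and day, the 2 called genes with the largest change in each direction, of which a part is printed. Promoters come from RefSeq, and other coordinates from GENCODE release 29, whose identifiers match all 58721 genes. Promoter identity was computed with Biopython 1.88. The floor for a count of 0 is 3 counts and, like the intervals, covers counting error only.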

Additional observations from a re-analysis of the deposited data

Results flagged for a closer look

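The difference between PERK KO and wild-type cells changed over the days for 3 neighbours of ZNF492, by the edgeR test of the 5 genotype-by-day terms together. Of all genes tested, 80.9% were called in the same way, so a call is not particular to these neighbours. The adjusted p was 2.15e-08 for ZNF43, 5.12e-08 for ZNF100 and 0.0209 for ZNF431. Their log2 fold changes, PERK KO over wild type, were -0.59, -0.68 and -0.25 at day 0 and 3.12, 3.04 and 0.56 at day 10.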

How the results depend on the processing

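None of the results recomputed changed sign while called, and 3 neighbours had a genotype difference that changed over the days in every alternative that gave a value (the libraries compared alone gave none). In the main fit 80.9% of all genes were called for such a change. The alternatives on ZNF849P, ZNF723, EIF2AK3 and the 26 further genes were chosen after seeing the data. For other counts that moved the cause was not tested. With no filter, 2 neighbours were lower in PERK KO cells at day 0, 2 members were higher at day 1 and 2 lower at day 2 against day 0 in PERK KO cells, and 4 and 2 of the 26 further genes were lower at days 0 and 1. The stricter filter, under which ZNF99 was not tested, gave 0 and 1 neighbours higher at days 0 and 3, and 1, 0, 1, 1 and 1 members lower in PERK KO cells at days 1, 2, 3, 5 and 10 against day 0. With only the libraries compared, 0 neighbours were higher at day 3, 2 members were higher in PERK KO cells at days 1, 2 and 10 and 2 lower at day 2, and 3, 2 and 3 were lower in wild-type cells at days 2, 3 and 10. That setting also gave 0 further genes higher and 0 lower at day 0, 5 higher and 8 lower at day 1, and 3 lower at day 5. With replicate 2 of PERK KO day 0 and replicate 3 of wild-type day 2 both left out, 2 members were lower in PERK KO cells at day 2, and the further genes had 2 higher and 3 lower at day 1, 2 lower at day 2, 5 higher at day 3 and 2 lower at day 5. DESeq2 gave 2 members lower in PERK KO cells at day 2 and 2 further genes lower at day 1.

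The replicate block gave 2 members lower in PERK KO cells at day 2 in place of 1, and called ZNF431 higher at day 10 (adjusted p = 0.0374). Of the correlations of same-numbered libraries, 3 of 18 were above 0.1, those of day 3 replicates 1 and 3 among them (0.316 and 0.284).

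Leaving out 1 library at a time gave 0 to 1 neighbours lower at day 0 and 0 to 2 higher at day 3. Against day 0 it gave 0 to 2 members higher at day 1 and 1 to 2 lower at day 2 in PERK KO cells, and 0 to 1, 3 to 5 and 2 to 5 lower at days 1, 2 and 3 in wild-type cells. Among the further genes it gave 0 to 1 and 3 to 11 higher at days 1 and 3, and 1 to 3, 0 to 2, 0 to 1, 1 to 3 and 0 to 2 lower at days 0, 1, 2, 3 and 5. Depth limits the 5 members that failed the filter, and ZNF99 after day 0.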
